A study of Homo sapiens with 18 samples.

Results

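Regions that carried both H3K4me3 and H3K27me3 in control cells and in cells overexpressing the long non-coding RNA H19 were described here. The cells were V16D, a castration-resistant prostate cancer line derived from LNCaP cells, transduced in biological triplicate with a control lentivector (V16D/CTL) or with a lentivector that drives H19 from a CMV promoter and also carries GFP and a puromycin resistance gene (V16D/H19). All 6 cultures were grown in RPMI1640 with 10% fetal bovine serum, and both groups come from the same line, so the findings are those of 1 cell line. Whether the transduced cells were pools or clones is not given in the sources used here, and the peak lists hold no measurement of H19 RNA with which to check the overexpression.

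Each of the 12 lists of peaks (3 replicates, 2 groups and 2 marks) was called against the input of its own replicate. The 6 lists of H3K4me3 peaks merged into 25373 regions, of which 17239 had a peak in at least 2 of 3 lists of each group. Of these, 1131 were also overlapped by H3K27me3 peaks of at least 2 of 3 lists in each group, and are called bivalent regions below. The other 16108 regions with H3K4me3 in both groups are used for comparison. Because presence of peaks chose the regions, the presence of both marks, and the level of a mark against other regions, are given as description with no test.

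H3K4me3 is deposited at the start sites of genes, mostly at CpG islands, by SET1 and MLL complexes, and goes with transcription initiation. H3K27me3 is laid down by Polycomb repressive complex 2 (PRC2), whose catalytic subunits are EZH2 and EZH1, and goes with silencing. Chromatin with both marks is known from stem cells, where it is found at promoters of developmental regulators that are held at low expression and can later be switched on or off. In a population of cells the 2 marks may lie on the same nucleosome, on neighbouring nucleosomes or in different cells, which peak lists of separate immunoprecipitations cannot tell apart.

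The bivalent regions were short and lay mostly at gene starts. Their median width was 1164 bases (quartiles 856 and 1543, range 283 to 11631), against 1959 bases in the other regions. Regions bivalent in 1 group alone were no wider, with medians of 1123 bases for V16D/CTL and 605 bases for V16D/H19. A start of a protein-coding RefSeq gene lay within 1 kb of 793 of the 1131 regions (70.1%), and 654 (57.8%) covered the start, against 59.1% of the other regions. The share within 1 kb was 63.4% in the other regions, 59.2% in the 417 regions bivalent in V16D/CTL alone and 52.6% in the 306 regions bivalent in V16D/H19 alone. A further 124 bivalent regions lay 1 to 10 kb from the nearest start and 211 lay farther, 105 of them beyond 100 kb, and 3 were on contigs with no annotated gene. The share of H3K4me3 regions that were bivalent ranged from 9.87% on chromosome 8 and 9.25% on chromosome 3 to 2.8% on chromosome 19, which holds the large zinc finger gene clusters, and 1.91% on chromosome X. None of the 25 regions of chromosome Y was bivalent.

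The DNA under the bivalent gene starts was rich in G+C and CpG dinucleotides, as is known of PRC2 target promoters. Of the 815 genes with a bivalent region within 1 kb of the start, 603 had a promoter window in the RefSeq table (GRCh38.p14, 300 bases around a start, most of them upstream). In the 778 windows that overlapped a bivalent region, the median G+C content was 71.7% and the median number of CpG was 32 (quartiles 24 and 39). In the 12636 windows that overlapped another H3K4me3 region of both groups the medians were 66.3% and 27 CpG, and in the 8456 windows outside all H3K4me3 regions they were 52.7% and 5 CpG. Motifs were searched on both strands. The Sp/KLF-type box GGGCGG was in 82.4% of the bivalent windows, in 73.6% of the windows of other H3K4me3 regions and in 56.3% of all 22198 windows of protein-coding genes. CCAAT was less frequent in bivalent windows (24.6%, other H3K4me3 windows 35.8%, all windows 34.7%), and the run GCGCGC, which holds several CpG, was in 47.9% (33.7% and 24.2%). TATAAA was in 4.5% of bivalent windows, in 4.61% of the windows of other H3K4me3 regions and in 9.47% of all windows. CACGTG was in 7.07%, 10.1% and 8.34%. These shares follow base composition in part, and a match of letters is not a binding site.

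Windows of 6 genes on which later results turn are printed 5′ to 3′ on the strand of the gene, with every CpG in capitals. POU3F1, HOXD8 and TBXT stand for the developmental transcription factors. GPR153 and TMEM132E had more H3K4me3 and less H3K27me3 in V16D/H19, and COL5A1 had the lowest adjusted p for H3K27me3. The windows lie at chr1:38046744-38047043 (POU3F1, minus strand), chr2:176129455-176129754 (HOXD8, plus strand), chr6:166168606-166168905 (TBXT, minus strand), chr1:6261049-6261348 (GPR153, minus strand), chr17:34579332-34579631 (TMEM132E, plus strand) and chr9:134641553-134641852 (COL5A1, plus strand).
POU3F1: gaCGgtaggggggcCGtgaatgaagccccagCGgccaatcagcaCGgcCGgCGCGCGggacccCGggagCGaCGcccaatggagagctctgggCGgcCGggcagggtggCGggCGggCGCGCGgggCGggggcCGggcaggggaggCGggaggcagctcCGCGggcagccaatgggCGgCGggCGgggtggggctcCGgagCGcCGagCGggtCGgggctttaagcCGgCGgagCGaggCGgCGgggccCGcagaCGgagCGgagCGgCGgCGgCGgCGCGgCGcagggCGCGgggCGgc
HOXD8: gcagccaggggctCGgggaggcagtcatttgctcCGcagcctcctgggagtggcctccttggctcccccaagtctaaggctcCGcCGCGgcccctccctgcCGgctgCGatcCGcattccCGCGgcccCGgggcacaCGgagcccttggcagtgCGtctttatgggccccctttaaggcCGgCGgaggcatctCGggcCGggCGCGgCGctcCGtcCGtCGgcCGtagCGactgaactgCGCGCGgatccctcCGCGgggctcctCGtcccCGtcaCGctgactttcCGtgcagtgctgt
TBXT: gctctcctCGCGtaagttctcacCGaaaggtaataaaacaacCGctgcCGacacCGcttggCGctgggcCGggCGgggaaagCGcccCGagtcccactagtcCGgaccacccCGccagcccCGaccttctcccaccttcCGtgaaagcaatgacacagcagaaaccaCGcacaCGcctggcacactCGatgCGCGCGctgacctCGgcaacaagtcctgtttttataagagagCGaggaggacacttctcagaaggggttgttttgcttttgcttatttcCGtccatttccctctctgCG
GPR153: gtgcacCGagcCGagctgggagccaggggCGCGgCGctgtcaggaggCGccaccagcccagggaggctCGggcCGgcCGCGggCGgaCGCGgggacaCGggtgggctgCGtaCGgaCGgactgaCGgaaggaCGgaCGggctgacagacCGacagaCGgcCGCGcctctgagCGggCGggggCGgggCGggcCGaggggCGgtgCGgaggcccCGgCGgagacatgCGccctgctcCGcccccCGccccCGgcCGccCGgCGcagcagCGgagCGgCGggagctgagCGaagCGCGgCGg
TMEM132E: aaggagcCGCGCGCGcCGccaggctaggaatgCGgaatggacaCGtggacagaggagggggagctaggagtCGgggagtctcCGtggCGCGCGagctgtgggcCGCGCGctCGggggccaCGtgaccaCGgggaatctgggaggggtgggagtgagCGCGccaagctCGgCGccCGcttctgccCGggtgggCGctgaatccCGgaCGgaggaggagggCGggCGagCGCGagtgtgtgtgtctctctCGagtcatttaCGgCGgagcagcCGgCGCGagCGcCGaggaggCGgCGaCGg
COL5A1: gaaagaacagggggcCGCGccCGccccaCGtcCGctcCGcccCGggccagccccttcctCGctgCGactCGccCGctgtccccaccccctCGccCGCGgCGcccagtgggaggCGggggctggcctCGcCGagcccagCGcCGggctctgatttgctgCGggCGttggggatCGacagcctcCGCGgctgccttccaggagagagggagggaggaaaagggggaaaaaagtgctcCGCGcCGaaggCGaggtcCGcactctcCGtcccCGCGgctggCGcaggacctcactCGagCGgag
POU3F1 had 49 CpG in 300 bases and 82.3% G+C, and GPR153 had 47 CpG and 80.7% G+C. TMEM132E had 42 CpG, COL5A1 36 and HOXD8 34. TBXT, with 25 CpG and 58.3% G+C, was the least CpG-dense of the 6, and was the only one of them with TATAAA.

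Several families of genes that pattern the embryo, and lists of neuronal genes, had a larger share of their members at bivalent regions than protein-coding genes as a whole, though together they are a small part of the set. Over all 19671 protein-coding genes placed on the genome with a strand, 815 (4.14%) had a bivalent region within 1 kb of the start, and 628 (3.19%) had H3K27me3 in both groups and no H3K4me3 peak in any list. These shares are the background for the gene lists that follow, which were chosen with earlier results of these data known. A count near 4.14% is therefore no feature of a list, and no test was made of any list.

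**Figure D1:**
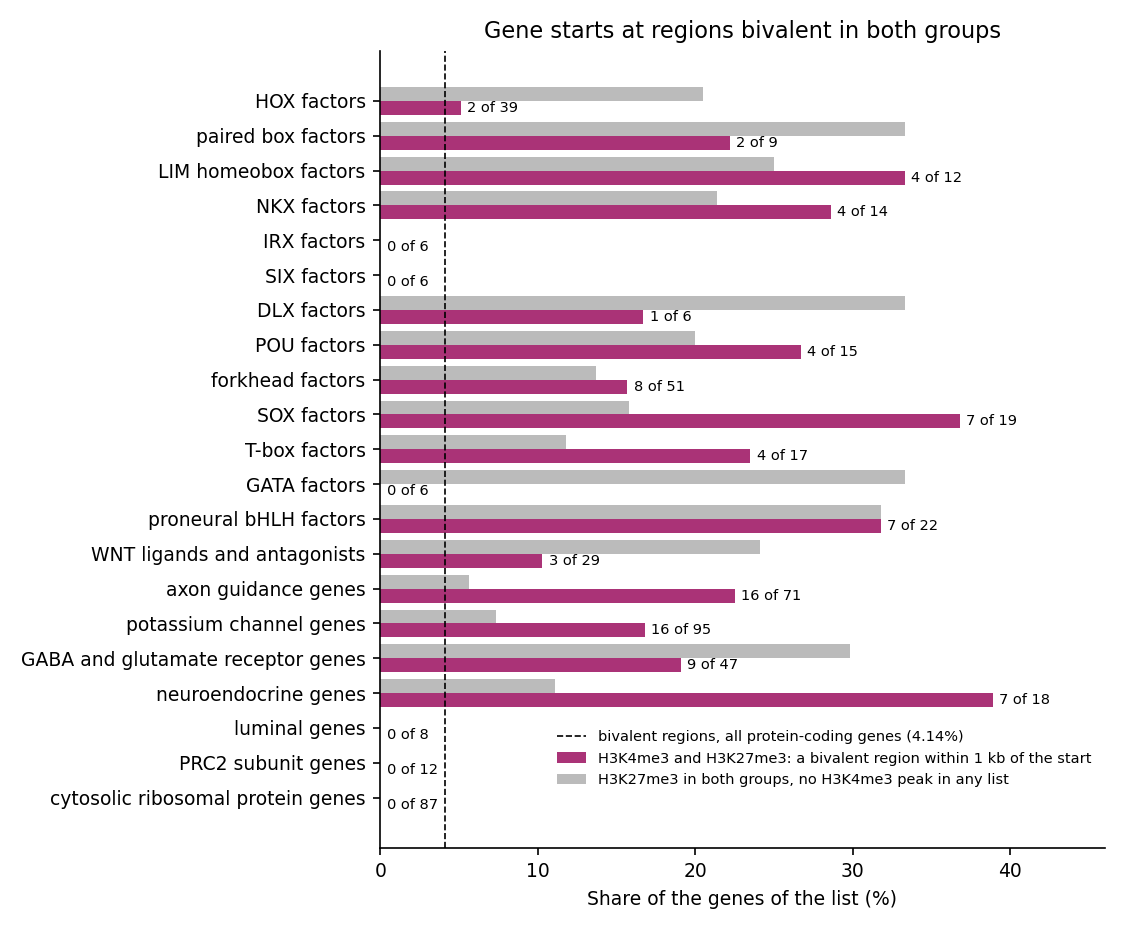
Share of the genes of each list, in percent, whose start lay within 1 kb of a region bivalent in both groups (purple, with the count) or had H3K27me3 in both groups and no H3K4me3 peak (grey), with a dashed line at 4.14% for all protein-coding genes. SOX factors (7 of 19) and neuroendocrine genes (7 of 18) have the longest purple bars, and IRX, sine oculis homeobox, GATA, luminal, PRC2 and ribosomal protein genes have none.

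Among transcription factor families, SOX factors, which include regulators of stem cells and neural fate, had 7 of 19 genes at bivalent regions (SOX14, SOX8, SOX21, SOX7, SOX18, SOX2 and SOX5). LIM homeobox factors, which specify neurons and limb structures, had 4 of 12 (LMX1B, LHX1, LHX4 and LMX1A), and NKX factors, which pattern the ventral neural tube and the gut, had 4 of 14 (NKX1-2, NKX2-2, NKX3-2 and NKX2-1). POU factors had 4 of 15, namely POU3F1, POU3F2 (BRN2) and POU3F3 of neural progenitors and POU4F1 of sensory neurons. T-box factors had 4 of 17 (TBXT of the notochord, TBX20, TBX18 and TBX2), forkhead factors 8 of 51, paired box factors 2 of 9 (PAX5 and PAX7), and proneural bHLH factors 7 of 22, among them BHLHE22, HEY2, ASCL2 and OLIG2. Of the DLX factors DLX5 was bivalent, 1 of 6. HOX factors, the classical Polycomb targets, had 2 of 39 (HOXD8 and HOXB9), while 8 of 39 had H3K27me3 and no H3K4me3 peak. IRX, sine oculis homeobox and GATA factors had none (0 of 6 each), and 2 of the 6 GATA genes had H3K27me3 with no H3K4me3.

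Genes of neuronal wiring and signalling were counted in the same way. Axon guidance genes, which code for ligands and receptors that steer growing axons, had 16 of 71, among them the netrin relative NTNG2, the ephrin receptor EPHB1, the repellent SLIT2 and the semaphorin receptor PLXND1. Potassium channel genes had 16 of 95, among them KCNC4, KCNF1 and KCNK13. GABA and glutamate receptor genes had 9 of 47 (among them GABBR2, GRM8, GABRB2 and GRIK1), and in 14 more of the 47 H3K27me3 stood alone. WNT ligands and antagonists had 3 of 29 (WNT7A, SFRP1 and DKK3), with 7 more under H3K27me3 alone.

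The neuroendocrine list had 7 of 18 genes at bivalent regions: POU3F2, FGF9, RUNX1T1, ETV5, RGS7, BRINP1 and SOX2. The study itself chose many genes of this list on the basis of these libraries, so the count is not independent evidence. None of the 8 luminal genes, none of the 12 PRC2 subunit genes and none of the 87 cytosolic ribosomal protein genes had a bivalent region, although 8, 10 and 83 of them had H3K4me3 in both groups at the start. The luminal and PRC2 lists are too short to set a count of 0 apart from the 4.14% of all genes.

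Markers of cell identity were read from the peaks at their starts. The luminal genes KLK2, KLK3, TMPRSS2, FKBP5, KRT8 and KRT18 had H3K4me3 in 3 of 3 lists of each group and H3K27me3 in none. The basal genes KRT5, KRT14 and TP63 and the blood genes PTPRC and CD3E had no H3K4me3 peak in any list. Of the neuroendocrine markers, SYP and ENO2 had H3K4me3 in all 6 lists, CHGA had none, and SOX2 had both marks in all 6. H3K27me3 was present at ENO2 in 2 of 3 lists of V16D/CTL and 1 of 3 of V16D/H19. At CHGA it was present in 2 of 3 and 3 of 3 lists. CHGB and NCAM1 had H3K27me3 in all 6 lists, with H3K4me3 in 0 of 3 and 1 of 3 lists of V16D/CTL and in 2 of 3 lists of V16D/H19 for both. The stromal gene COL1A1 also had both marks in all 6 lists. VIM, listed with blood and stroma, had H3K4me3 in 3 of 3 lists of each group. Its H3K27me3 was in 0 of 3 lists of V16D/CTL and 1 of 3 of V16D/H19.

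The fold over input that the peak caller gave was used as the level of a mark, taking the largest fold of the peaks of a library inside a region. H3K4me3 was weaker at bivalent regions than elsewhere. In the 981 bivalent regions with an H3K4me3 peak in all 6 lists, the median fold was 13.6, 13.0 and 13.1 in V16D/CTL versus 14.9, 16.3 and 13.3 in V16D/H19, against 37.3 to 43.2 in the other regions. Replicates 1 and 2 of V16D/H19 were above all V16D/CTL libraries and replicate 3 lay within their range, so the groups overlapped (13.2 ± 0.321 and 14.8 ± 1.5, SD, n = 3 each, two-sided exact permutation p = 0.2). Without V16D/H19 replicate 2 the difference of 1.6 in fold became 0.867. With 3 libraries against 3 this test cannot give a p below 0.1. As a ratio to the other regions the values were 0.337 ± 0.0123 and 0.365 ± 0.0204 (exact permutation p = 0.2).

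H3K27me3 was lower at the bivalent regions in every V16D/H19 library. Over the 989 merged H3K27me3 regions that had a peak in all 6 lists and overlapped a bivalent region, the median fold was 4.50, 4.48 and 4.46 in V16D/CTL against 4.06, 4.08 and 4.11 in V16D/H19. The groups did not overlap, and the difference was -8.85% (4.48 ± 0.02 against 4.08 ± 0.0252, SD, n = 3 each, exact permutation p = 0.1, the smallest possible). H3K27me3 regions elsewhere in the genome were also lower, by a smaller step, at 3.84 ± 0.052 and 3.74 ± 0.0252 (-2.69%, exact permutation p = 0.1). The bivalent regions stood above the others by a ratio of 1.17 ± 0.0115 in V16D/CTL versus 1.09 ± 0.0113 in V16D/H19, and the 3 ratios of one group were again all above those of the other (exact permutation p = 0.1). The direction was the same in the highest quartile of H3K27me3 folds. There the bivalent regions had medians of 4.85, 4.88 and 4.86 in V16D/CTL against 4.31, 4.33 and 4.38 in V16D/H19, against 4.46 to 4.54 and 4.22 to 4.30 in other regions. With only peaks of a -log10 q of at least 5, 9 bivalent regions remained, and their median log2 difference after centring was 0.043, the other direction.

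**Figure D2:**
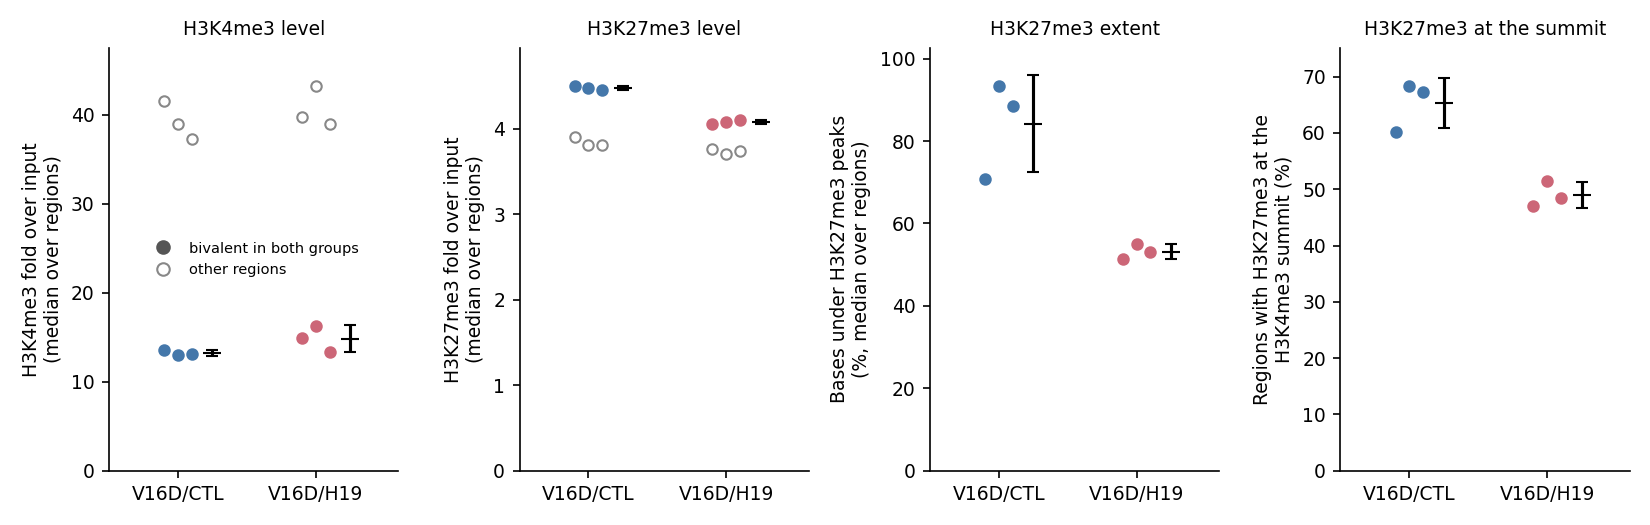
Library values at the bivalent regions (filled points, 1 per replicate, with mean and SD) for the 2 groups: median H3K4me3 fold over input, median H3K27me3 fold over input, median percent of a region's bases under H3K27me3 peaks, and percent of regions with H3K27me3 at the H3K4me3 summit. Open points show the other regions in the first 2 plots, and in the 3 plots of H3K27me3 the V16D/H19 points (4.06 to 4.11, 51.4 to 55.0% and 47.1 to 51.5%) lie below all V16D/CTL points.

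The extent of H3K27me3 over the bivalent regions was also smaller in every V16D/H19 library. The median percent of a region's bases under H3K27me3 peaks was 70.9, 93.3 and 88.5 in V16D/CTL versus 51.4, 55.0 and 53.1 in V16D/H19. All 3 V16D/H19 libraries were below all 3 V16D/CTL libraries (84.2% ± 11.8 against 53.2% ± 1.8, SD, n = 3 each, exact permutation p = 0.1), and V16D/CTL replicate 1 was nearest to them. Regions wholly under H3K27me3 made up 36.9%, 46.7% and 45.9% in V16D/CTL against 22.4%, 26.5% and 25% in V16D/H19. The rule asked for an overlap of 1 base or more in 2 of 3 lists, and the extent of that overlap was not used by it.

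The H3K27me3 peaks themselves were narrower. Single peaks at bivalent regions had a median width of 1697, 2057 and 2060 bases in V16D/CTL versus 1320, 1400 and 1400 bases in V16D/H19, which do not overlap (exact permutation p = 0.1), against 528 to 545 and 517 to 526 bases for peaks elsewhere. The bases under peaks summed in each merged H3K27me3 region gave a nearer comparison. Their medians were 2984 ± 218 bases in V16D/CTL versus 2365 ± 94.1 in V16D/H19 (-20.7%) at bivalent regions and 1940 ± 236 versus 1631 ± 84.6 (-15.9%) elsewhere, and the ratio of bivalent to other regions overlapped between groups, at 1.54 ± 0.0857 and 1.45 ± 0.0217 (SD, n = 3 each, exact permutation p = 0.2). In the quartile with the highest folds the differences were -17.8% and -15.2%. The whole lists covered 45.1, 58.8 and 62.2 Mb in V16D/CTL against 42.3, 47.5 and 48.4 Mb in V16D/H19, groups that overlap (exact permutation p = 0.3). Width and significance of a peak depend on read depth, which was not used here, and the part of depth in these widths was not tested. The median -log10 q of the peaks at bivalent regions was 3.31, 3.53 and 3.57 in V16D/CTL versus 2.53, 2.65 and 2.68 in V16D/H19, against 1.84 to 1.96 and 1.71 to 1.77 elsewhere. Broad peaks with a -log10 q of 5 or more numbered 510, 632 and 699 in the V16D/CTL lists and 142, 160 and 189 in the V16D/H19 lists. Cutting all lists of a mark to equal length left the difference in covered bases at -31.3 percentage points. That cut removed the peaks of lowest significance and did not change the width of the others, so it does not test the part of depth.

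Around the H3K4me3 summit, H3K27me3 formed shoulders with a dip between them. At the summit itself 60.2%, 68.3% and 67.3% of the bivalent regions were under an H3K27me3 peak in V16D/CTL against 47.1%, 51.5% and 48.4% in V16D/H19 (65.3% ± 4.42 against 49.0% ± 2.26, exact permutation p = 0.1). At 0.5 kb toward higher coordinates the shares were 63.3%, 71.9% and 69.8% in V16D/CTL versus 54.6%, 55.3% and 59.1% in V16D/H19, so the dip was present in all 6 libraries. At 10 kb on that side they were between 7.34% and 11.6%, with no separation of the groups. H3K27me3 on both sides within 2 kb but not at the summit was seen in 15.3% ± 2.24 of the regions in V16D/CTL against 22.7% ± 0.608 in V16D/H19, and on 1 side only in 17.8% ± 1.65 and 25.1% ± 0.666 (exact permutation p = 0.1 for each, SD, n = 3 each). H3K4me3 was confined to the centre, with 93.8 to 98.5% of regions under a peak at the summit and 9.2 to 12.8% at 1 kb toward higher coordinates.

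**Figure D3:**
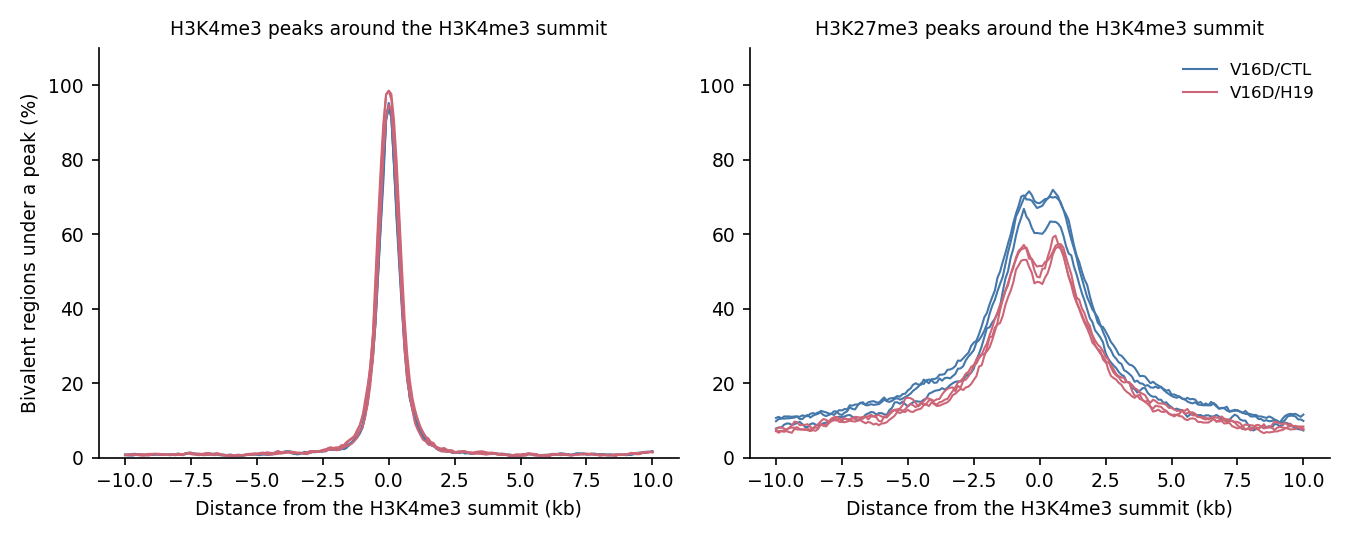
Percent of the 1131 bivalent regions under an H3K4me3 peak (left) or an H3K27me3 peak (right) at each distance in kb from the H3K4me3 summit, with 1 line per library (blue V16D/CTL, red V16D/H19). The H3K4me3 lines of the groups overlap (41.6 to 51.2% in V16D/H19 and 39.9 to 42.6% in V16D/CTL at 0.5 kb), while the 3 red H3K27me3 lines lie below the 3 blue lines at the summit (47.1 to 51.5% against 60.2 to 68.3%) and approach them far from it.

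The width of H3K4me3 did not separate the groups in the same way. The median number of bases of a bivalent region under H3K4me3 peaks was 960, 943 and 948 in V16D/CTL versus 1056, 1106 and 948 in V16D/H19, and V16D/H19 replicate 3 equalled a V16D/CTL library (exact permutation p = 0.3). The difference of 86.3 bases became 51.7 without V16D/H19 replicate 2 and 131 without V16D/H19 replicate 3. Divided by the width in the other regions the values were 0.523 ± 0.0026 and 0.567 ± 0.0276, which did not overlap (exact permutation p = 0.1).

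Region by region, no bivalent region passed the test in either mark. limma was fitted to the log2 fold of the 6 libraries, each centred on its median over all regions with a peak in all 6 lists, and p-values were adjusted over all those regions by Benjamini-Hochberg. For H3K4me3, 15811 regions including 981 bivalent ones were tested and 0 (0.0%) had an adjusted p under 0.05. At an unadjusted p under 0.05, 71 bivalent regions were higher and 22 lower in V16D/H19, where 3.17% of all regions were higher and 3.47% lower. For H3K27me3, 10934 merged H3K27me3 regions, of which 989 overlapped a bivalent region, were tested and again 0 (0.0%) passed. At an unadjusted p under 0.05, 12 of these 989 were higher and 147 lower, where 2.84% of all regions were higher and 4.61% lower.

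The mean differences leaned opposite ways in the 2 marks. For H3K4me3 the median log2 difference of the bivalent regions was 0.104 and 58.3% were above 0, against -0.017 and 48.0% over all regions. The H3K4me3 median became 0.057 without V16D/CTL replicate 1 and 0.165 without V16D/H19 replicate 3. For H3K27me3 the median log2 difference was -0.097 and 25.6% were above 0, against -0.008 over all regions, of which 52.4% were below 0. The 6 libraries of a mark are shared by all regions, so these counts are not independent observations.

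Non-overlap of the groups gave the same picture. All 3 V16D/H19 libraries were higher than all 3 V16D/CTL libraries in H3K4me3 at 102 of 981 bivalent regions (10.4%; 5.58% of all regions tested) and lower at 51 (5.2%; 6.4% of all). In H3K27me3 they were higher at 20 of 989 (2.02%; 5.41% of all) and lower at 175 (17.7%; 7.13% of all). With folds as deposited, with no centring, the counts were 111 and 38 for H3K4me3 and 13 and 247 for H3K27me3.

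The level of a mark bears on these differences, so they were also read within quartiles of the mean fold over all regions tested. Most bivalent regions, 654 of 981, were in the lowest quartile of H3K4me3, with folds from 3.65 to 18.6. There their median log2 difference was 0.162, with 63.0% above 0, and that of the 3299 other regions of the quartile was -0.093, with 41.1% above 0. In the next quartile 287 bivalent regions had a median of 0.004 and the others -0.023, and the 31 and 9 bivalent regions of the upper quartiles had medians of -0.024 and -0.194. In H3K27me3 the bivalent regions had medians of -0.061, -0.032, -0.089 and -0.114 from the lowest to the highest quartile, and the others 0.021, 0.007, -0.001 and -0.037.

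Within gene families the values went in both directions. The 44 bivalent regions at starts of the listed transcription factors had a median log2 difference in H3K27me3 of -0.14 (35 regions with peaks in all 6 lists, 27 below 0, 11 with non-overlapping lower and 0 with non-overlapping higher values). The 836 such regions of the bivalent set had a median of -0.12, with 645 below 0, 171 non-overlapping lower and 12 non-overlapping higher. Over all H3K27me3 regions tested, 7.13% were lower without overlap. All 6 SOX regions with a value were below 0, at a median of -0.27. The T-box and NKX regions had medians above 0, at 0.08 (0 of 3 below 0) and 0.03 (1 of 3 below 0). In H3K4me3 the 7 regions of the bHLH list were all above 0, at a median of 0.42, against 0.1 over the 981 bivalent regions. Of the 7, 1 was higher without overlap, where 102 of the 981 (10.4%) and 5.58% of all regions tested were. The 4 T-box regions were also all above 0 (median 0.43). Medians were below 0 in the LIM homeobox (-0.13), SOX (-0.1), NKX (-0.08), neuroendocrine (-0.08) and GABA and glutamate receptor (-0.1) regions, on 2 to 7 regions each, and at -0.71 in the 1 paired box region with a value.

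Single transcription factor genes show how close the groups lay. At POU3F1 (chr1:38046321-38047616, covering the start of the gene), the region whose window is printed above with 49 CpG, the H3K4me3 fold was 16.4, 13.0 and 16.9 in V16D/CTL against 19.3, 32.9 and 11.5 in V16D/H19. Its H3K27me3 fold was 5.32, 5.52 and 6.23 in V16D/CTL versus 4.85, 4.79 and 5.43 in V16D/H19. Both marks overlapped between the groups. At POU3F2 (chr6:98833992-98835505), the neural factor BRN2 of neuroendocrine prostate cancer, H3K4me3 was 17.7, 14.8 and 14.3 in V16D/CTL against 21.1, 22.5 and 7.39 in V16D/H19. H3K27me3 there was 5.92, 4.68 and 5.81 in V16D/CTL versus 4.75, 4.73 and 4.67 in V16D/H19. V16D/CTL replicate 2 lay among the V16D/H19 values and V16D/H19 replicate 3 had the lowest H3K4me3.

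At SOX2 (chr3:181711462-181713031), a pluripotency and neural progenitor factor, H3K4me3 was 20.2, 15.3 and 27 in V16D/CTL against 23.2, 21.6 and 16.9 in V16D/H19. H3K27me3 at SOX2 was 4.43, 4.27 and 5.23 in V16D/CTL versus 3.22, 3.67 and 3.69 in V16D/H19. The H3K27me3 values did not overlap, but the merged H3K27me3 region of which they are part had a log2 difference of -0.04 in the fit. At FOXP2 (chr7:114085852-114086955), a factor of speech circuits, H3K27me3 was 5.74, 5.6 and 4.94 in V16D/CTL against 3.9, 3.76 and 3.7 in V16D/H19. H3K4me3 at FOXP2 overlapped, at 8.98, 5.6 and 7.66 in V16D/CTL versus 7.76, 11.9 and 6.0 in V16D/H19. The ligand gene WNT7A (chr3:13878896-13880409) had H3K27me3 folds of 5.66, 5.55 and 6.99 in V16D/CTL against 4.2, 3.99 and 3.99 in V16D/H19, and its log2 difference was -0.53 with an SE of 0.114 and an adjusted p of 0.141 by limma.

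TBXT (chr6:166167427-166168971), the notochord factor whose window had the fewest CpG of those printed, had H3K27me3 folds of 4.95, 3.61 and 3.97 in V16D/CTL versus 5.36, 4.58 and 4.2 in V16D/H19. These overlapped, as did its H3K4me3 folds of 14.8, 17.7 and 8.38 in V16D/CTL against 22.5, 22.2 and 13.0 in V16D/H19. HOXB9 (chr17:48624812-48626686), a posterior HOX factor, had H3K27me3 folds of 4.86, 5.23 and 4.86 in V16D/CTL versus 4.0, 3.69 and 4.0 in V16D/H19, which did not overlap. At NKX2-2 (chr20:21521458-21523323), a factor of ventral neural progenitors and endocrine cells, H3K27me3 was 4.86, 4.41 and 4.36 in V16D/CTL against 4.37, 4.46 and 4.61 in V16D/H19, which overlapped. FGF9, a growth factor ligand, had a bivalent region 0.051 kb upstream of its start (chr13:21669687-21671022) with H3K27me3 folds of 5.76, 4.5 and 5.2 in V16D/CTL versus 3.47, 4.64 and 4.52 in V16D/H19. H3K4me3 at that region was 11.7, 13.5 and 15.2 in V16D/CTL against 10.8, 7.07 and 7.84 in V16D/H19, lower in all 3 as deposited.

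The largest differences in H3K4me3 between non-overlapping groups, 5 in each direction, were chosen on these values and are given as description. They were taken from the 712 bivalent regions with peaks of both marks in all 6 lists. CSMD2 (chr1:34164672-34165490, 0.352 kb downstream of the start), a large transmembrane protein of CUB and sushi domains expressed in brain, had folds of 5.68, 4.35 and 3.39 in V16D/CTL versus 11.2, 15.3 and 10.4 in V16D/H19. ASTN2 (chr9:117414234-117415349), a protein of glia-guided neuronal migration, had 4.23, 12.5 and 11.3 in V16D/CTL against 24.1, 26.8 and 15.8 in V16D/H19. Their log2 differences were 1.42 and 1.31, and the H3K27me3 values of both overlapped between the groups. MB21D2 (chr3:192917212-192918473) had 13.6, 9.17 and 6.96 in V16D/CTL versus 22.7, 29.3 and 14.8 in V16D/H19. At a region 18.2 kb downstream of the start of BEGAIN (chr14:100567881-100569240), a postsynaptic protein, H3K4me3 was 4.02, 5.86 and 5.43 in V16D/CTL against 10.6, 11.9 and 10.9 in V16D/H19. That region also had one of the 5 highest mean H3K27me3 levels of the set, with folds of 5.37, 7.23 and 6.63 in V16D/CTL versus 5.95, 6.66 and 5.88 in V16D/H19 that overlapped.

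In the other direction, RND3 (chr2:150484496-150487726), a small GTP-binding protein that acts on the actin cytoskeleton, had the lowest adjusted p of the set for H3K4me3. Its folds were 29.5, 17.9 and 21.9 in V16D/CTL against 5.32, 7.38 and 6.8 in V16D/H19, a log2 difference of -1.86 with an SE of 0.327 and an adjusted p of 0.0767 by limma. H3K27me3 at RND3 was 4.61, 3.81 and 4.6 in V16D/CTL versus 4.24, 4.04 and 4.96 in V16D/H19, and overlapped. ARMH4 (chr14:58151378-58152907) had H3K4me3 folds of 31.0, 35.8 and 18.8 in V16D/CTL against 10.0, 9.96 and 17.8 in V16D/H19. All 3 libraries of each group separated at both genes in H3K4me3, and also at a region 103 kb from the nearest start, that of BRD1, where the log2 difference was -1.0.

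PKIA (chr8:78515982-78517092), which codes for an inhibitor of protein kinase A, was the only region of those with both marks in all lists where H3K4me3 was lower and H3K27me3 higher without overlap. Its H3K4me3 folds were 24.3, 17.3 and 19.8 in V16D/CTL against 6.2, 14.9 and 8.5 in V16D/H19. Its H3K27me3 folds were 3.21, 3.42 and 2.86 in V16D/CTL versus 3.78, 4.44 and 3.68 in V16D/H19.

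Among the same 712 regions, the largest differences toward less H3K27me3 without overlap were at genes of several kinds. COL5A1 (chr9:134641041-134642682), the alpha 1 chain of type V collagen, whose CpG-rich window is printed above, had folds of 5.16, 5.77 and 5.72 in V16D/CTL against 3.28, 3.1 and 3.97 in V16D/H19. The log2 difference was -0.65 with an SE of 0.115, and the adjusted p of 0.0695 was the lowest of the set for H3K27me3 by limma. H3K4me3 at COL5A1 was 27.1, 11.8 and 15.2 in V16D/CTL versus 35.3, 18.3 and 17.2 in V16D/H19, and overlapped. METRNL (chr17:83078626-83081189), a secreted relative of meteorin, had H3K27me3 folds of 5.85, 5.8 and 4.7 in V16D/CTL against 2.97, 3.61 and 3.75 in V16D/H19 (adjusted p = 0.11 by limma). SPHK1 (chr17:76382607-76385380), sphingosine kinase 1, had 4.89, 8.79 and 5.23 in V16D/CTL versus 3.74, 4.31 and 3.79 in V16D/H19. V16D/CTL replicate 2 stood apart at SPHK1, and without it the groups would still not overlap. The region over the starts of OTOP2 and USH1G (chr17:74923039-74923737) had 4.25, 4.66 and 6.91 in V16D/CTL against 3.72, 2.94 and 3.06 in V16D/H19, while the merged H3K27me3 region around it had a log2 difference of only -0.05 in the fit.

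More H3K27me3 in V16D/H19 without overlap was rare, and the 5 largest differences among the 712 regions were small. Beside PKIA they included RELN (chr7:103988653-103990395), the secreted reelin of cortical layering, with folds of 3.18, 3.63 and 3.56 in V16D/CTL versus 5.01, 3.97 and 3.9 in V16D/H19. SLIT3 (chr5:169300544-169301601), a repellent ligand of axons, had 4.27, 3.33 and 3.39 in V16D/CTL against 4.86, 4.13 and 4.36 in V16D/H19. Without centring, the lowest V16D/H19 value of SLIT3 lies below the highest V16D/CTL value. SYT6 (chr1:114152410-114153272), a synaptotagmin, had 4.48, 4.55 and 4.44 in V16D/CTL versus 5.87, 5.12 and 5.08 in V16D/H19. ADRA2A (chr10:111076031-111077727), the alpha-2A adrenergic receptor, had 3.54, 3.47 and 2.95 in V16D/CTL against 3.8, 3.46 and 4.12 in V16D/H19, and overlapped as deposited in the same way.

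Both marks could be followed in all 6 lists at 712 of the 1131 bivalent regions. Of these, 327 (45.9%) had a mean difference above 0 in H3K4me3 and below 0 in H3K27me3, 218 were below 0 in both, 103 above 0 in both and 64 had the reverse. Across these 712 regions of the same libraries, the levels of the marks were inversely related (Spearman's rank correlation -0.28, Pearson's r -0.29), as a description over regions that are not independent. The differences of the marks between groups were not related (rank correlation 0.04, r 0.02). H3K4me3 was higher without overlap at 83 (11.7%) and lower at 34 (4.78%), and H3K27me3 was higher at 12 (1.69%) and lower at 131 (18.4%). Over all regions tested the shares were 5.58% higher and 6.4% lower for H3K4me3, and 5.41% higher and 7.13% lower for H3K27me3. For the counts of both marks together, no share over all regions was computed. The regions with H3K4me3 higher and H3K27me3 lower numbered 16, and of the 131 with lower H3K27me3, 12.2% had higher H3K4me3, close to the 11.7% of all 712. Higher values in both marks were seen at 0 regions and lower values in both at 2, NXPH2 and SHISAL1.

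**Figure D4:**
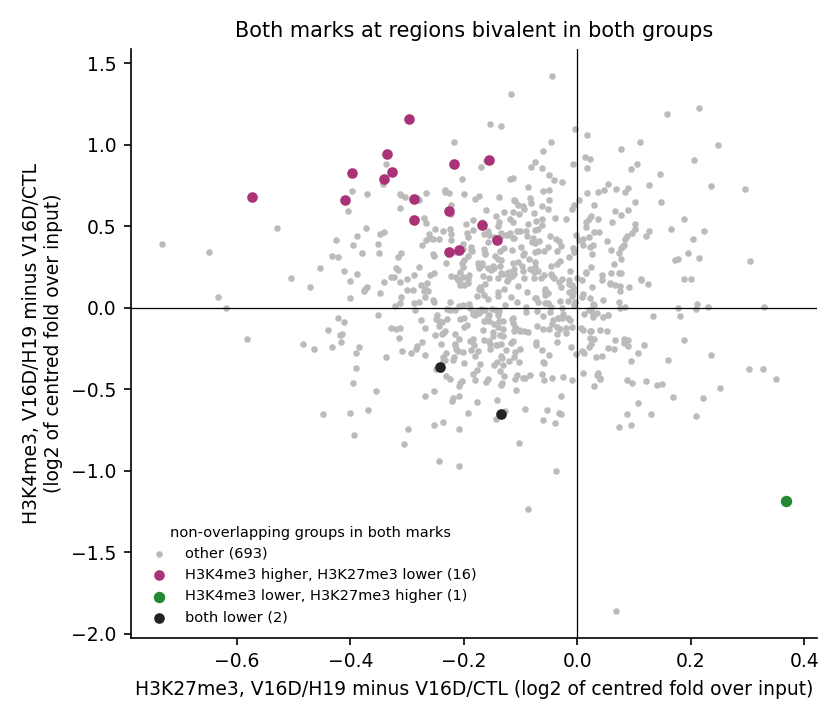
Difference of each bivalent region between V16D/H19 and V16D/CTL in H3K27me3 (horizontal) and H3K4me3 (vertical), both as log2 of the centred fold over input, for the 712 regions with both marks in all 6 lists. The 16 purple points (H3K4me3 higher and H3K27me3 lower with non-overlapping groups) lie in the upper left, the green point is PKIA, and the 2 black points, NXPH2 and SHISAL1, were lower in both marks.

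The 16 regions with more H3K4me3 and less H3K27me3 were singled out after their values were seen, and 14 of them lay within 1 kb of a gene start. Their genes have no single function. CERK, ceramide kinase, had the largest difference in H3K4me3 (chr22:46737671-46738650), with folds of 3.95, 6.99 and 4.89 in V16D/CTL versus 7.42, 14.9 and 15.0 in V16D/H19. Its H3K27me3 folds were 4.82, 5.49 and 4.67 in V16D/CTL against 3.56, 3.86 and 4.42 in V16D/H19. Neural genes among the 16 were NPAS3, a bHLH-PAS factor of the brain, GRIP2, a scaffold of AMPA receptors, and B3GAT2, a glucuronyltransferase of the HNK-1 carbohydrate. The NPAS3 region (chr14:32938528-32939614) lay 3.74 kb downstream of the start, and had H3K4me3 folds of 6.03, 5.86 and 7.7 in V16D/CTL versus 13.8, 11.4 and 13.6 in V16D/H19. Its H3K27me3 folds were 6.2, 5.36 and 6.03 in V16D/CTL against 4.18, 5.19 and 4.2 in V16D/H19.

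GPR153 (chr1:6259885-6261508), an orphan G protein-coupled receptor whose window of 47 CpG is printed above, had H3K4me3 folds of 8.11, 11.7 and 9.41 in V16D/CTL versus 15.2, 16.1 and 15.8 in V16D/H19. H3K27me3 at GPR153 was 5.44, 4.66 and 5.13 in V16D/CTL against 3.81, 3.29 and 4.04 in V16D/H19, and covered 21.7%, 100% and 79.1% of the region in V16D/CTL versus 53.8%, 44.5% and 64.7% in V16D/H19. Its covered share overlapped although its folds did not. TMEM132E (chr17:34579088-34580308), a transmembrane protein linked to hearing, had H3K4me3 folds of 12.1, 8.78 and 6.4 in V16D/CTL against 18.3, 19.1 and 12 in V16D/H19. Its H3K27me3 folds were 6.64, 5.94 and 6.83 in V16D/CTL versus 4.92, 4.12 and 5.3 in V16D/H19. In H3K4me3 as deposited, V16D/H19 replicate 3 of TMEM132E was just under V16D/CTL replicate 1, and the same held for DACT1, an antagonist of WNT signalling, so 14 of the 16 were also without overlap as deposited.

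HOXD8 (chr2:176129693-176130770), the HOX factor of the 16, had H3K4me3 folds of 5.11, 5.86 and 4.74 in V16D/CTL against 7.34, 7.07 and 8.73 in V16D/H19. Its H3K27me3 folds were 5.0, 5.05 and 5.29 in V16D/CTL versus 4.09, 4.43 and 4.74 in V16D/H19. Both marks separated by a small margin there, with log2 differences of 0.51 and -0.17. SNTB1 (chr8:120811143-120812599), the syntrophin beta 1 of the dystrophin complex, had the largest H3K27me3 difference of the 16, with folds of 5.96, 5.57 and 5.92 in V16D/CTL against 3.6, 3.87 and 3.91 in V16D/H19. Its H3K4me3 folds were 12.7, 11.5 and 10.2 in V16D/CTL versus 14.3, 23.2 and 20.5 in V16D/H19. The others were WSCD2, FIBCD1 (a chitin-binding receptor), ADAMTS2 (a procollagen peptidase), CYRIB (a Rac1 interactor), FAM20C (a kinase of secreted proteins), FMNL1 (a formin) and IGDCC3. Their log2 differences ranged from 0.34 to 0.88 in H3K4me3 and from -0.33 to -0.14 in H3K27me3. At CYRIB the H3K27me3 difference was -0.23 inside the bivalent region and 0.01 in the fit of the merged H3K27me3 region. IGDCC3 rested on V16D/H19 replicate 1, since its H3K4me3 difference of 0.34 became 0.12 without that library.

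**Figure D5:**
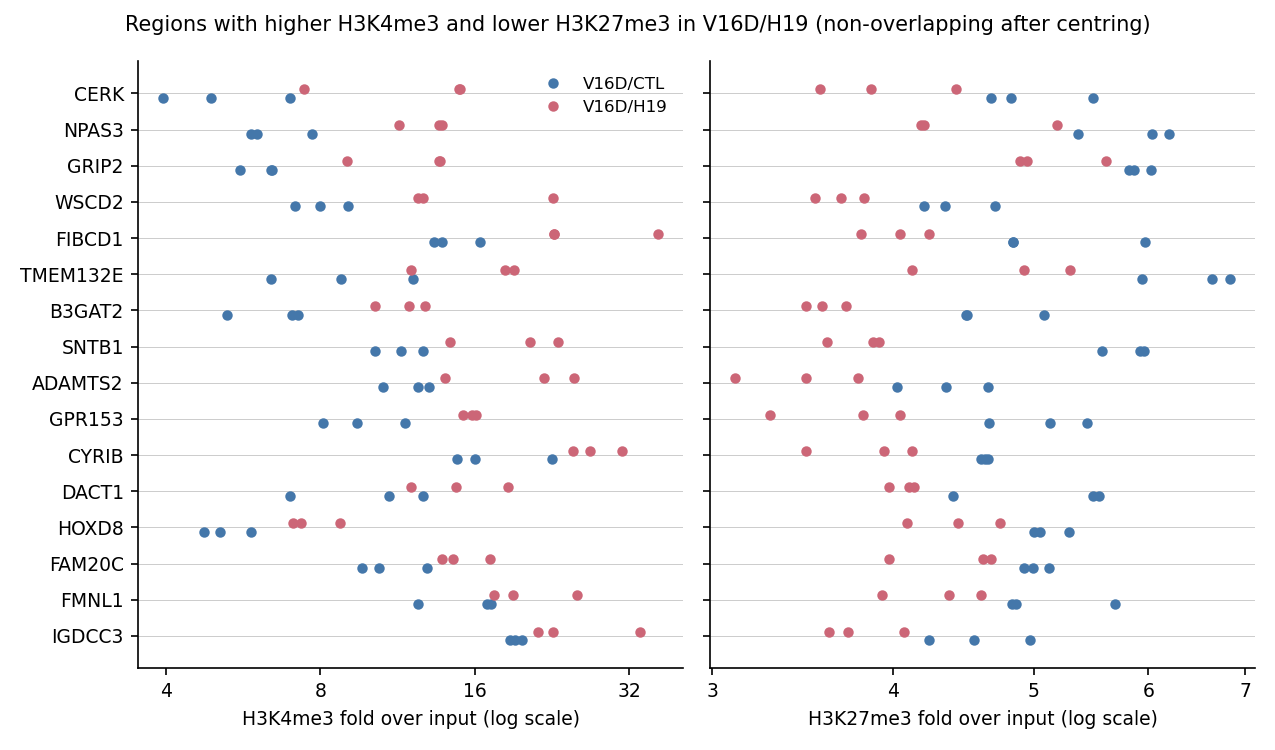
H3K4me3 fold (left) and H3K27me3 fold (right) over input, on log axes, of each library at the 16 regions with more H3K4me3 and less H3K27me3 in V16D/H19 after centring, in order of the H3K4me3 difference (blue V16D/CTL, red V16D/H19, 3 points each). Red points lie to the right of blue points on the left and to the left of them on the right, except for H3K4me3 at TMEM132E and DACT1, where 1 red point lies just left of the highest blue point.

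The strongest regions of each mark were different ones. The highest mean H3K4me3 was at the shared start of HS2ST1 and SELENOF (chr1:86912852-86916090), with folds of 68.5, 66.4 and 67.1 in V16D/CTL against 74.8, 56.0 and 40.1 in V16D/H19, and H3K27me3 folds of 3.05 to 4.59. BAHD1 (2.22 kb from the start), which codes for a heterochromatin protein that binds H3K27me3, CHD7, a chromatin remodeller, PURG with WRN, and LRP12 followed, with library values between 35.4 and 84.3. These are levels of active promoters, and 9 bivalent regions in all were in the top quartile of H3K4me3. Among the highest mean H3K27me3 levels were those at TPTE (106 kb from the start), ZNF92 (135 kb), NTNG2 and BEGAIN. NTNG2 (chr9:132161645-132162510) had 7.59, 6.2 and 6.77 in V16D/CTL against 4.74, 6.1 and 6.12 in V16D/H19.

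The widest bivalent region, of 11631 bases at the protocadherin gene PCDH7 (chr4:30716578-30728208), had H3K4me3 folds of 24.0, 20.4 and 30.4 in V16D/CTL versus 16.7, 18.8 and 20.0 in V16D/H19. H3K27me3 there overlapped, with folds between 3.32 and 4.49. ALOXE3, IGF1R, ZNF516 and ZBTB7A followed, at 6753, 6162, 5915 and 4525 bases. IGF1R (chr15:98646582-98652743), the receptor of insulin-like growth factor 1, had H3K4me3 folds of 52.0, 51.4 and 43.9 in V16D/CTL against 43.5, 42.1 and 28.7 in V16D/H19, without overlap as deposited, and H3K27me3 folds from 3.16 to 4.14. The regions farthest from any start were 3 on chromosome 7, 2793, 2758 and 1473 kb from the nearest protein-coding start and close to the centromere of that chromosome. Their H3K27me3 folds ranged from 3.04 to 6.04.

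Regions near the threshold show what the rule did. Of the 1131 regions, 836 had H3K27me3 in all 6 lists, 178 in 3 lists of V16D/CTL and 2 of V16D/H19, 40 in 2 and 3, and 77 in 2 and 2. Just outside lay 90 regions with 3 lists of V16D/CTL and 1 of V16D/H19, 10 with 1 and 3, 113 with 2 and 1, and 41 with 1 and 2. PRKCQ, protein kinase C theta, was just inside (chr10:6579698-6581126), with H3K27me3 folds of 4.03 and 4.16 in V16D/CTL replicates 2 and 3, 4.06 and 3.5 in V16D/H19 replicates 1 and 2, and no peak in the other 2 lists. NFATC1, a calcineurin-dependent factor, was inside in the same way (chr18:79395602-79396586). NOG, the BMP antagonist noggin, was just outside (chr17:56592445-56594938), with H3K27me3 folds of 5.46, 5.22 and 5.07 in V16D/CTL and a single peak of 3.67 in V16D/H19. The same held for a 446-base H3K4me3 region over the start of FGF9, next to the bivalent one (chr13:21671033-21671478), with 5.76, 4.5 and 5.2 in V16D/CTL versus 4.5 in V16D/H19 replicate 3. A missing peak is not an absent mark.

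The deposited tables of differential sites give, for the sites they list, each group's mean log2 normalized read count, which rests on reads and not on peak heights. The sites were listed by the authors for their difference, so the values are the authors' means and are given with no test. A listed H3K4me3 site overlapped 169 of the 1131 bivalent regions (14.9%; 9.86% of the 17239 regions with H3K4me3 in both groups). Of the 166 sites involved, the authors' mean was higher in V16D/H19 at 131 and not at 35, while of 1480 listed sites at the other regions it was higher at 210. A listed H3K27me3 site overlapped 290 bivalent regions (25.6%; 2.11% of the 17239), a contrast that the choice of regions by H3K27me3 peaks fixes. Of the 265 sites involved the authors' mean was higher in V16D/H19 at 2 and not at 263, and of the 70 listed sites at the other regions it was higher at 5 and not at 65, the same direction.

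At single genes the authors' means can be set beside the peak folds. For COL5A1 the authors' H3K27me3 mean was 6.07 in V16D/CTL against 4.51 in V16D/H19, for SOX2 it was 7.78 and 7.01, and for POU3F2 8.96 and 8.55. For CERK the authors' H3K4me3 mean was 3.46 and 5.76, and the H3K27me3 mean 6.56 and 5.65. HOXD8 had authors' means of 3.87 and 5.03 in H3K4me3 and 9.05 and 8.67 in H3K27me3. RND3 had authors' H3K4me3 means of 8.62 and 5.85. At TBXT, by contrast, the authors' H3K27me3 mean was lower in V16D/H19 (6.93 and 6.41) where the peak fold had a log2 difference of 0.22, and at RGS7, a regulator of G protein signalling, the authors' H3K4me3 mean was higher (7.07 and 7.73) where the peak fold had a log2 difference of -0.18.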

How the data were processed

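Chromatin immunoprecipitation sequencing of H3K4me3 and H3K27me3 was analysed in 3 V16D/CTL and 3 V16D/H19 libraries per mark, grouped by their labels as biological triplicates. The authors called peaks with MACS2 against the input of each replicate, on hg38 per the labels, in narrow mode for H3K4me3 and broad mode for H3K27me3 (tool versions and the aligner are not given in the sources used here). Per peak, the deposited lists give a fold over input (a linear ratio), a score, and p- and q-values as -log10. The 2 deposited tables of differential sites, made by the authors with DiffBind and ChIPseeker, hold group means as log2 normalized counts, with fold changes and p-values that were not used.

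Peaks were merged where they shared 1 base or more, and a region's level in a library was the largest fold of its peaks. Differences were tested with limma 3.58.1 (R 4.3.3) on log2 folds centred on the library median, over regions with a peak in all 6 lists, since peak folds are not counts. Library values were compared with two-sided exact permutation tests over 20 assignments. Gene starts came from RefSeq GRCh38.p14, 1 per protein-coding gene, for the 19671 of 20033 (98.2%) with a strand. The fit was tested on simulated data. The read depth of the libraries was not used, so no counting interval was computed.

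The regions, gene lists and alternatives were chosen with earlier results of these data known. Named regions were the 5 with the largest difference in each mark and direction among non-overlapping groups (none passed the test, on which the rule first relied), those with the highest mean level of each mark, the widest, the farthest from a start, up to 4 of each gene list by mean H3K27me3, and some near the threshold. SOX2 and RGS7 fall outside the 4 of their lists, and they were chosen after their values were seen. Some genes are not reported here. Alternatives were other levels, filters, centring, a replicate block and leaving out each replicate.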

Additional observations from a re-analysis of the deposited data

How the results depend on the processing

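For the number of regions with an adjusted p under 0.05 among the bivalent ones, 0 in each mark, the alternatives gave few calls. For H3K4me3, the length-weighted mean fold called 1, RND3 (limma, adjusted p = 0.0315). For H3K27me3, a peak in at least 2 of 3 lists of each group called 3 (BAIAP3, METRNL and COL5A1, adjusted p = 0.0491) and folds as deposited called 3 (METRNL, SNTB1 and COL5A1, smallest adjusted p = 0.0246). Leaving out 1 library gave 0 to 2 calls, the 2 (BAIAP3 and METRNL, smallest adjusted p = 0.0163) without V16D/CTL replicate 3. The cause was not tested. With the replicate number as a block, H3K27me3 had 2 calls (BAIAP3, adjusted p = 0.0274, and COL5A1, 0.0296) and H3K4me3 had 0. Same-numbered libraries had correlations of their deviations between -0.009 and 0.026. Such values cannot show whether same-numbered cultures were handled together, and the main fit treated the samples as unpaired.

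The number of bivalent regions was 1131, and 579 when H3K27me3 peaks had to cover at least 50% of a region, 712 with 3 of 3 lists, 27 with peaks of a -log10 q of at least 5, and 894 to 978 without 1 library. With that last filter on q, 9 bivalent regions of 31 remained in the H3K27me3 fit and the median log2 difference turned to 0.043. The differences by library kept their direction in the alternatives run. Leaving out 1 library gave 0.867 to 2.37 for the H3K4me3 fold and -0.41 to -0.385 for the H3K27me3 fold. For the bases under H3K27me3 it gave -37.7 to -26.5 percentage points. In both H3K27me3 measures the groups did not overlap, so leaving out 1 library could not reverse the direction. The 54 differences of named regions kept their sign in all 432 alternatives. Only differences whose groups did not overlap after centring were entered, so leaving out 1 library could not change a sign. Of the unadjusted calls, the 71 with higher H3K4me3 became 46 without V16D/H19 replicate 2, and the 12 with higher H3K27me3 became 19 without V16D/CTL replicate 1. The read depth and the regions below the peak caller's threshold limit what a missing peak says.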

Other observations

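BAIAP3, which codes for a protein of dense-core vesicle exocytosis and is among the bivalent regions (chr16:1332995-1334380, over the start), was singled out after its values were seen because it was called in alternatives. Its H3K27me3 folds were 7.81, 9.49 and 5.29 in V16D/CTL versus 4.28, 5.31 and 3.43 in V16D/H19. V16D/H19 replicate 2 and V16D/CTL replicate 3 were nearly equal, so the groups overlapped as deposited. Its H3K4me3 folds were 24.1, 13.0 and 10.0 in V16D/CTL against 17.8, 32.7 and 13.5 in V16D/H19, and overlapped.

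The values of the 2 regions that were lower in both marks were as follows. NXPH2 (chr2:138780036-138780810), a neurexophilin that binds neurexins, had H3K4me3 folds of 7.03, 6.52 and 6.56 in V16D/CTL versus 4.67, 5.58 and 6.0 in V16D/H19, and H3K27me3 folds of 4.77, 4.7 and 4.87 in V16D/CTL against 3.34, 4.23 and 4.26 in V16D/H19. SHISAL1 (chr22:44331068-44332179), of the Shisa-like family, had H3K4me3 folds of 9.09, 9.03 and 11.5 in V16D/CTL versus 7.98, 8.13 and 4.14 in V16D/H19, and H3K27me3 folds of 4.56, 4.37 and 5.16 in V16D/CTL against 4.01, 4.22 and 4.18 in V16D/H19.

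The 16 regions at potassium channel genes had a median log2 difference of 0.17 in H3K4me3 and of -0.12 in H3K27me3 (14 regions with peaks in all 6 lists). The medians of the whole bivalent set were 0.1 and -0.12, so the H3K27me3 value was that of the set.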
